A study of Mus musculus with 6 samples.

Results

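Mammalian cells that run short of amino acids, or whose translation is restrained for another reason, slow protein synthesis through phosphorylation of the initiation factor eIF2, and this favours translation of the transcription factor ATF4. ATF4 pairs with C/EBP proteins on composite DNA elements (C/EBP-ATF response elements, CARE) and drives genes for amino acid uptake, for the synthesis of asparagine, serine, cysteine and proline, and for the folate pathway that carries one-carbon units from serine. T cells switch on much of this programme when they are activated and begin to grow. Because ATF4 is set largely at translation, the level of its own RNA is not a measure of its protein.

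The 33 genes described here were named as a list: 12 integrated stress response factors and effectors (Atf4, Atf5, Ddit3, Ddit4, Trib3, Chac1, Sesn2, Nupr1, Cebpb, Cebpg, Vldlr, Eif4ebp1), 8 enzymes of amino acid synthesis (Asns, Gpt2, Cth, Phgdh, Psat1, Psph, Aldh18a1, Pycr1), 8 transporters (Slc7a5, Slc3a2, Slc7a1, Slc7a11, Slc1a4, Slc1a5, Slc38a1, Slc38a2) and 5 enzymes of one-carbon folate metabolism (Shmt1, Shmt2, Mthfd1, Mthfd1l, Mthfd2). All 33 were found among the 24011 genes of the deposited table, as 45 transcripts. The deposited symbol found 32 of them. The row of Cebpb carried no symbol and was found by its RefSeq accession, as was the transcript that held most of the Atf4 signal.

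The libraries hold total RNA of CD4 T cells of C57BL/6 mice, sorted from lymph nodes and spleens. The YAP cKO mice carried YAP flox/flox with CD4-Cre+, so that the allele recombines where the CD4 promoter is active, before conventional and regulatory T cells part, and the WT mice were wild type. YAP, the Hippo pathway's effector, activates transcription together with TEAD proteins. For each genotype there was 1 library of each population: naive T cells (CD4+ CD62L+ CD25-), natural regulatory T cells taken fresh (fresh nTregs, CD4+ CD25 high) and nTregs stimulated with anti-CD3 and anti-CD28 at 2 µg/ml each and IL-2 at 100 U/ml. The labels give 24 h of stimulation in one place and 48 h in another, and do not say how many mice stand behind a library.

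With 1 library per group, the genotypes within a population are compared as values without a test. The column abbreviation YKP was read as cKO by elimination, and Yap1 did not bear this out: it was 0.235 FPKM in the stimulated library labelled cKO, against 0.169 FPKM in that labelled WT, and it was listed at 0 in the other 4 libraries. Xist, an RNA of the inactive X chromosome of females, was 3.43 and 3.21 FPKM in the stimulated and fresh nTreg libraries labelled cKO, against 21.1 and 30.0 FPKM in those labelled WT. In naive cells it was 8.76 FPKM in the library labelled cKO, against 12.5 FPKM in that labelled WT. Its part in the genotype comparisons was not tested. The summed FPKM of 4 Treg markers (Foxp3, Il2ra, Ikzf2, Ctla4) was 42.7 in cKO naive, 48.4 in WT naive and between 753 and 969 in the nTreg libraries. Of 7 B cell markers the sum was 7.51 to 11.1 FPKM in naive and stimulated libraries and 39.6 in cKO fresh and 48.0 in WT fresh nTregs. Of 8 myeloid and dendritic markers it was 4.71 to 7.32 FPKM. Cd14 was at 0 in all 4 unstimulated libraries, while Cd68 was 2.41 to 4.04 FPKM across the 6 libraries. Lyz2 was 0.372 and 1.12 FPKM in the cKO naive and fresh nTreg libraries, against 2.78 and 3.78 FPKM in those of WT. In stimulated nTregs Lyz2 was 0.821 FPKM in cKO and 0.152 FPKM in WT. The 7 erythroid and platelet markers in the table were all under 1 FPKM in every library. One fragment on a transcript of 1 kb was worth an estimated 0.102 to 0.133 FPKM, so a member at 1 FPKM rests on few fragments.

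Letters of the CARE core, TGATGNAA on either strand, were looked for in the window around each transcription start (250 bases before it and 50 after it; RefSeq, GRCm38.p6). A window was found for 28 of the 33 members, all but Cth, Eif4ebp1, Slc1a5, Slc38a1 and Slc7a5. The core was in the windows of 8 of these 28 (28.57%) and of 1219 of all 27025 genes with a window (4.511%). The list was named for the ATF4 programme, whose targets are known by this element, so this share describes the members and tests nothing. The stretches are shown because they carry the element by which the list is defined, and they include Asns, Chac1 and Nupr1, which had some of the largest differences with stimulation. They are written 5′ to 3′ on the strand of the gene, with the core in capitals.
Asns, chr6:7693210-7693459 (minus strand): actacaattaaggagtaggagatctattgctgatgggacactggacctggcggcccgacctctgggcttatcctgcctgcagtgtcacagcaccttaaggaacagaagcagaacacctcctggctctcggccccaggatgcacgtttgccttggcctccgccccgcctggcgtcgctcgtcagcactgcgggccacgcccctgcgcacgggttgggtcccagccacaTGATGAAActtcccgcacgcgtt
Chac1, chr2:119350992-119351241 (plus strand): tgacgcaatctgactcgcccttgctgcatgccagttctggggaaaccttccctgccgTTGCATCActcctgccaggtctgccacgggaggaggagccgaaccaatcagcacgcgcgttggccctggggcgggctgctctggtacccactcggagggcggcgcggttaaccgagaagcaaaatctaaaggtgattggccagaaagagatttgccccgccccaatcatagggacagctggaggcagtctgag
Nupr1, chr7:126625471-126625720 (minus strand): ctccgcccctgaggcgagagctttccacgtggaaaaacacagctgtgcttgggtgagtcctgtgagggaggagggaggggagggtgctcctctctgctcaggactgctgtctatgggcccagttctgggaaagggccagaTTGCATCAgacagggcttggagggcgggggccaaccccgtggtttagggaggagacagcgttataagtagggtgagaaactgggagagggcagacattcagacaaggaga
Slc1a4, chr11:20332699-20332728 (minus strand): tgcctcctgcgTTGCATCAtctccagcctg
Slc7a11, chr3:50443651-50443680 (minus strand): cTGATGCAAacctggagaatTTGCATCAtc
Trib3, chr2:152344028-152344057 (minus strand): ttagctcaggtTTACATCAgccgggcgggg
Pycr1, chr11:120643833-120643862 (minus strand): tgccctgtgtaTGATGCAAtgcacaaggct
Vldlr, chr19:27216809-27216838 (plus strand): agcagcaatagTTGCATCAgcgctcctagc

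The core began 4 bases before the start in Slc1a4, 23 in Asns, 103 in Pycr1, 110 in Nupr1, 193 in Chac1 and 200 in Vldlr. Slc7a11 held it at 66 and 47 bases before the start, once on each strand. The start used lies inside the annotated span of the gene for Slc7a11 (55474 bases from its 5′ end; chr3:50364936-50499087) and for Vldlr (540 bases from its 5′ end; chr19:27216480-27254231), so the cores of both lie within the gene. In Trib3 it began 14 bases after the start. Of these 8 genes, Asns and Trib3 were measured before stimulation and rose with it, where 22.5% of all genes tested rose. Chac1, Nupr1 and Slc1a4 could be tested only because of their level in stimulated nTregs, and Pycr1, Slc7a11 and Vldlr were too low to be tested. The TEAD core, GGAATG on either strand, was in the window of 1 of the 28 members (Mthfd1, 123 bases before a start that lies 826 bases inside the gene), or 3.571%, and of 16.58% of all genes with a window. That these letters are absent from a window says nothing on binding elsewhere.

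Stimulation of nTregs changed most of the list. Of the 30 members that could be tested, 24 rose, 2 fell and 4 were not called. Chac1, Cth, Nupr1 and Slc1a4 reached the FPKM minimum only through the stimulated libraries, so their rise is part of how they came to be tested. Among the 26 members with at least 1 FPKM in an unstimulated library, 20 rose and 2 fell, where 22.5% of all 11224 genes tested rose and 27.3% fell. The values are FPKM, which is scaled by transcript length, and a difference is on the log2(FPKM + 1) scale from limma with Benjamini-Hochberg adjustment over all genes tested, called at an adjusted p under 0.05. The median difference was 1.22 over the 30 members and 1.11 over the 26, against -0.05 over all genes. With the members at 0 in fresh nTregs set to the floor of 3 fragments, the median over the 30 was 1.22 as well. The error behind these tests is the spread of the response between the genotypes and populations, not between replicate mice.

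**Figure D1:**
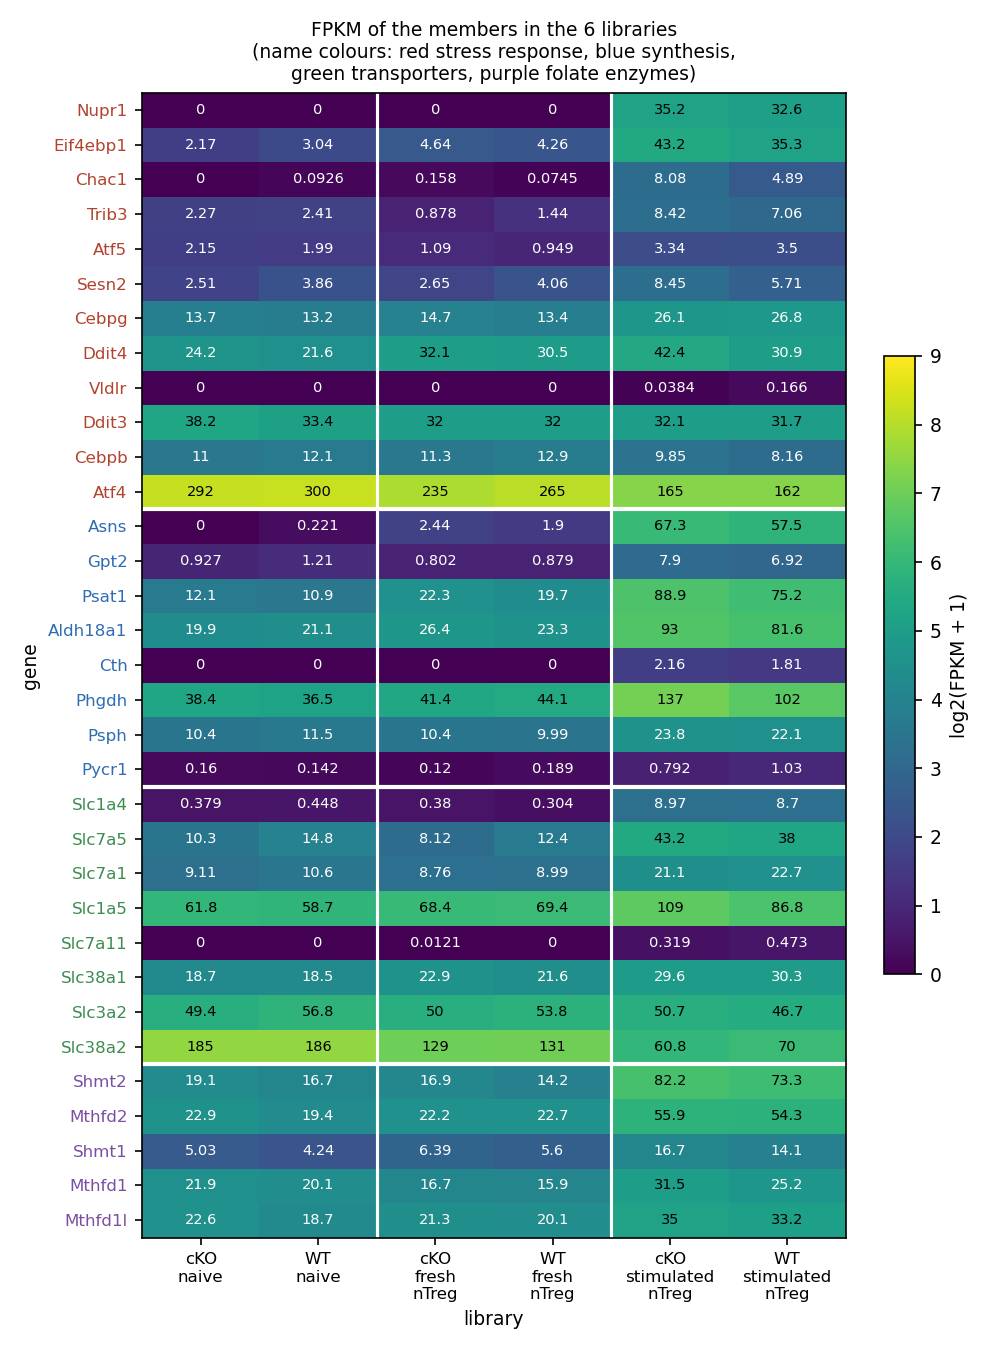
FPKM of the 33 members in the 6 libraries, written in each cell and coloured as log2(FPKM + 1), with genes grouped by role and sorted within a role by their change with stimulation. Most members are lighter in the 2 stimulated nTreg columns on the right; Atf4 and Slc38a2 are darker there, and Nupr1 and Cth are listed at 0 in the 4 unstimulated libraries.

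Of 11 stress response factors and effectors tested, 7 rose and 1 fell, which was Atf4 itself. Among all genes tested, 22.5% rose and 27.3% fell. Chac1 and Nupr1 are among the 7 and could be tested only because of their level in stimulated nTregs. Atf4 (chr15:80255184-80257545) had 165 FPKM in cKO and 162 FPKM in WT stimulated nTregs, against 235 in cKO and 265 in WT fresh nTregs. In naive cells it had 292 FPKM in cKO and 300.4 in WT. The stimulated libraries were the lowest and did not overlap the others, and Atf4 was still the most abundant of the 33 members in every library. The fall of 0.61 (log2 difference -0.61 ± 0.08 SE, limma, adjusted p = 0.00216) was not called when every library was scaled to the same FPKM sum (-0.03), a scaling that moved the median of all genes to 0.47. Relative to the median of all genes the Atf4 difference was -0.56 on the deposited values and -0.50 on that scaling. Its 2 RefSeq transcripts share most of their sequence, and the one without a deposited symbol held 65.2% to 79.4% of the Atf4 FPKM across the libraries.

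The partners and relatives of ATF4 did not move as one. Cebpg, a dimer partner of ATF4, had 26.1 FPKM in cKO and 26.8 FPKM in WT stimulated nTregs, against 14.7 in cKO and 13.4 in WT fresh nTregs (log2 difference 0.87, limma adjusted p = 0.000894). Atf5, a related factor also controlled by translation, had 3.34 FPKM in cKO and 3.50 in WT stimulated nTregs, against 1.09 and 0.949 in the cKO and WT fresh libraries (1.13, limma adjusted p = 0.00139). Both genes were higher in both stimulated libraries than in any other library. Ddit3, which encodes the pro-apoptotic factor CHOP, had 32.1 and 31.7 FPKM in the cKO and WT stimulated libraries, against 32.0 in each fresh library, a log2 difference of -0.00 ± 0.09 (SE) that was not called. Cebpb had 9.85 and 8.16 FPKM in the cKO and WT stimulated libraries, against 11.3 and 12.9 in the fresh ones, and its difference of -0.39 was not called (limma adjusted p = 0.0526). A Tmem189 transcript shares 320 bases of Cebpb on the opposite strand, at 16.8 to 23.7 FPKM.

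Several effectors at the end of the pathway rose strongly. Nupr1, a small stress-induced chromatin protein, had 35.2 FPKM in cKO and 32.6 FPKM in WT stimulated nTregs and was listed at 0 in the 4 other libraries. Against a floor of 3 fragments in each fresh library it was at least 68.8-fold higher in cKO and at least 67.4-fold higher in WT. Chac1, an enzyme that degrades glutathione, had 8.08 and 4.89 FPKM in the cKO and WT stimulated libraries, against 0.158 and 0.0745 in the fresh ones, which rest on about 2.1 and 1.0 fragments. Both genes were thus at or near 0 before stimulation and clearly measured after it. Eif4ebp1, a repressor of cap-dependent translation, had 43.2 FPKM in cKO and 35.3 FPKM in WT stimulated nTregs, against 4.64 and 4.26 in the cKO and WT fresh libraries, which is 9.29-fold higher in cKO and 8.29-fold in WT. Trib3, a pseudokinase that restrains ATF4 activity, had 8.42 FPKM in cKO and 7.06 FPKM in WT stimulated nTregs, against 0.878 and 1.44 in the cKO and WT fresh libraries (log2 difference 2.03, limma adjusted p = 0.000491).

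The members that damp mTORC1 behaved unevenly. Sesn2, a leucine sensor, had 8.45 FPKM in cKO and 5.71 in WT stimulated nTregs, against 2.65 in cKO and 4.06 in WT fresh nTregs. Its rise of 0.89 (limma adjusted p = 0.0297) was 0.65 without the cKO fresh library and 0.41 without the cKO stimulated one, and was not called in either case. With no FPKM minimum the rise of Sesn2 was not called either. Ddit4 had 42.4 and 30.9 FPKM in the cKO and WT stimulated libraries, against 32.1 and 30.5 in the fresh ones, so that only the cKO stimulated library stood above the rest, and its difference of 0.20 was not called. Vldlr, a lipoprotein receptor and known ATF4 target, was at 0.0384 FPKM in cKO and 0.166 in WT stimulated nTregs and listed at 0 elsewhere, too low to be tested.

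Enzymes of amino acid synthesis rose in 7 of 7 tested, where 22.5% of all genes tested rose. Cth is among the 7 and could be tested only because of its level in stimulated nTregs. Asns, asparagine synthetase, had 67.3 FPKM in cKO and 57.5 FPKM in WT stimulated nTregs, against 2.44 and 1.90 in the cKO and WT fresh libraries, which is 27.5-fold higher in cKO and 30.3-fold in WT (log2 difference 4.32 ± 0.17 SE, limma adjusted p = 5.69e-05). In naive cells it was listed at 0 in cKO and was 0.221 FPKM in WT. Asns thus stood in 3 separate ranges, lowest in naive cells and highest after stimulation. The serine pathway from glycolysis moved in all of its steps. Phgdh, its first and committed enzyme, had 137 FPKM in cKO and 102 FPKM in WT stimulated nTregs, against 41.4 and 44.1 in the cKO and WT fresh libraries. Psat1, the transaminase of the second step, had 88.9 FPKM in cKO and 75.2 FPKM in WT stimulated nTregs, against 22.3 and 19.7 in the cKO and WT fresh libraries. Psph, the phosphatase that releases serine, had 23.8 FPKM in cKO and 22.1 FPKM in WT stimulated nTregs, against 10.4 and 9.99 in the cKO and WT fresh libraries. The log2 differences of the serine enzymes were 1.44 for Phgdh, 1.91 for Psat1 and 1.09 for Psph, and the stimulated and fresh libraries did not overlap. Phgdh has processed copies elsewhere in the genome that share up to 84.9% of its transcript at 95% identity or more and are not in the table, so reads of those copies may be counted in it. A Cct6a transcript shares 452 bases of Psph on the opposite strand. Cct6a had 161 FPKM in cKO and 153 FPKM in WT stimulated nTregs, against 88.5 and 79.3 in the cKO and WT fresh libraries. Its part in the Psph values was not tested.

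Proline, alanine and cysteine enzymes followed the same direction. Aldh18a1, which makes the proline precursor, had 93.0 FPKM in cKO and 81.6 FPKM in WT stimulated nTregs, against 26.4 and 23.3 in the cKO and WT fresh libraries (log2 difference 1.77, limma adjusted p = 0.000124). Pycr1, the last step to proline, reached 0.792 FPKM in cKO and 1.03 in WT stimulated nTregs, against 0.120 and 0.189 in the fresh ones, on about 21 fragments in each against 3 and 5, and was not tested. Gpt2, the mitochondrial alanine aminotransferase, had 7.90 FPKM in cKO and 6.92 FPKM in WT stimulated nTregs, against 0.802 and 0.879 in the cKO and WT fresh libraries (2.19, limma adjusted p = 0.000246). These genes were each higher in both stimulated libraries than in any other. Cth, which makes cysteine from cystathionine, had 2.16 FPKM in cKO and 1.81 in WT stimulated nTregs and was listed at 0 in the other libraries, so it was at least 10.7-fold higher in cKO and at least 9.50-fold in WT than a floor of 3 fragments.

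Transporters split: 5 of 7 tested rose and 1 fell, where 22.5% of all genes tested rose and 27.3% fell. Slc1a4 is among the 5 and could be tested only because of its level in stimulated nTregs. Slc1a4, a neutral amino acid exchanger, had 8.97 FPKM in cKO and 8.70 FPKM in WT stimulated nTregs, against 0.380 and 0.304 in the cKO and WT fresh libraries, on about 13 and 11 fragments. Slc7a5, the catalytic chain of the large neutral amino acid transporter, had 43.2 FPKM in cKO and 38.0 FPKM in WT stimulated nTregs, against 8.12 in cKO and 12.4 in WT fresh nTregs. Its heavy chain Slc3a2 had 50.7 and 46.7 FPKM in the cKO and WT stimulated libraries, against 50.0 and 53.8 in the fresh ones. Of the 2 chains of this heterodimer 1 was called and 1 was not, and the difference between them was not tested: the log2 difference was 1.91 for Slc7a5 (limma adjusted p = 0.000681) and -0.09 for Slc3a2 (limma adjusted p = 0.473). The arginine and lysine transporter Slc7a1 had 21.1 FPKM in cKO and 22.7 in WT stimulated nTregs, against 8.76 and 8.99 in the cKO and WT fresh libraries (1.21). The glutamine transporter Slc1a5 had 109 FPKM in cKO and 86.8 in WT stimulated nTregs, against 68.4 and 69.4 in the cKO and WT fresh libraries, and its rise of 0.49 was not called without the cKO fresh library (0.38). Slc7a11, the cystine importer, had 0.319 FPKM in cKO and 0.473 in WT stimulated nTregs, with 1 other library above 0 (cKO fresh, 0.0121 FPKM), and was not tested.

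The 2 glutamine carriers of the Slc38 family, which lie near each other on chromosome 15, went opposite ways. Slc38a2 (chr15:96687392-96699728) had 60.8 FPKM in cKO and 70.0 FPKM in WT stimulated nTregs, against 129 in cKO and 131 in WT fresh nTregs. In naive cells it had 185 FPKM in cKO and 186 in WT. It fell in both steps without overlap between populations. With stimulation the fall was 0.98 on the log2 scale (log2 difference -0.98 ± 0.08 SE, limma, adjusted p = 0.00045). Between fresh nTregs and naive cells it was 0.51 (limma adjusted p = 0.00681). This second fall was not called with libraries scaled to the same FPKM sum, or without the cKO fresh, WT fresh or cKO naive library. Slc38a1 (chr15:96571418-96643438) had 29.6 and 30.3 FPKM in the cKO and WT stimulated libraries, against 22.9 and 21.6 in the fresh ones, a rise of 0.42 that was not called without the cKO fresh (0.46) or the WT fresh library (0.37).

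The transcripts of Slc38a1 shifted more than their sum. Its transcript of 3183 nt had 3.05 FPKM in cKO and 2.70 in WT stimulated nTregs, against 16.0 in cKO and 14.4 in WT fresh nTregs. Its transcript of 6966 nt had 19.8 FPKM in cKO and 20.8 in WT stimulated nTregs, against 3.54 in each fresh library. The short form made up 10.3% and 8.93% of the gene in the cKO and WT stimulated libraries, against 69.9% and 66.8% in the fresh ones and 59.6% and 48.6% in the naive ones. In Atf5 the coding transcript of 1735 nt was 84.2% and 100% of the gene in cKO and WT naive cells, 29.1% in cKO fresh nTregs and under 1% in the 3 other libraries, where the transcript annotated as non-coding took its place. Splits among transcripts are estimates of the authors' software without counts, and no test was made on them.

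**Figure D2:**
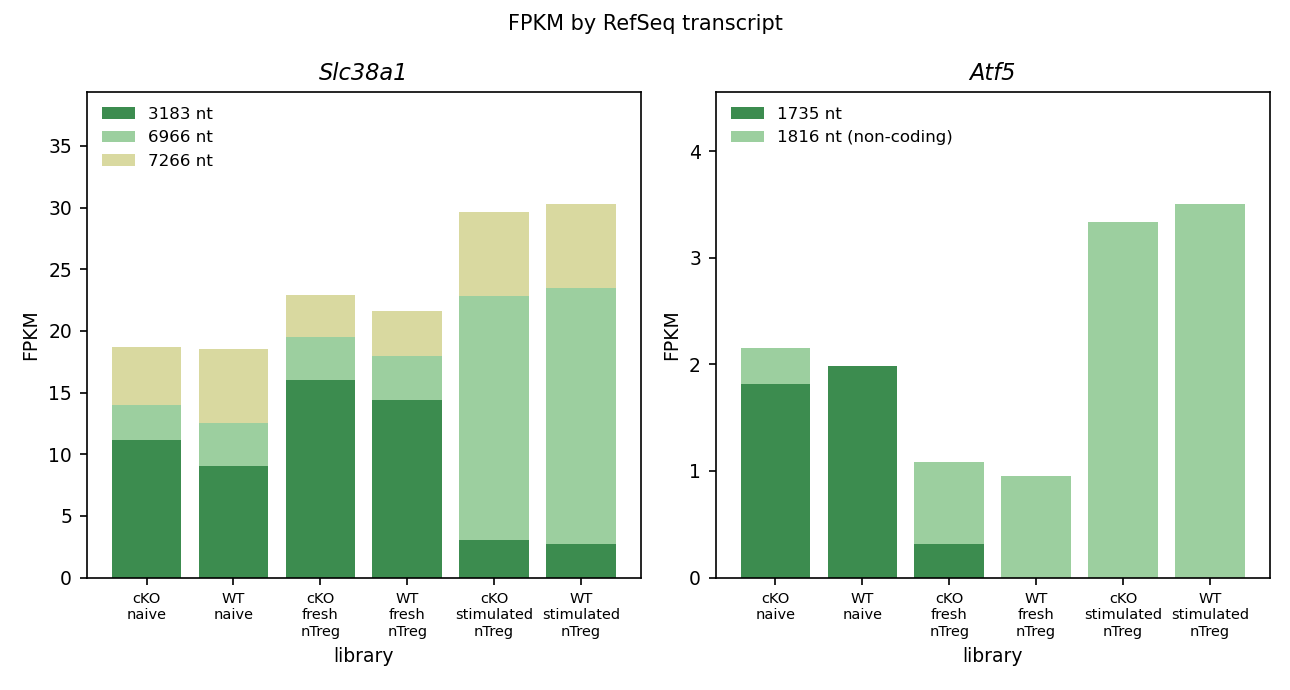
FPKM of Slc38a1 and Atf5 in the 6 libraries, stacked by RefSeq transcript and named by transcript length. The 3183 nt form of Slc38a1 is the largest part of the bar in the 4 unstimulated libraries and the smallest in the 2 stimulated ones, and the Atf5 signal passes to the form annotated as non-coding in nTregs.

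All 5 enzymes of one-carbon folate metabolism rose, where 22.5% of all genes tested rose. Shmt2, which splits serine into glycine and a one-carbon unit in mitochondria, had 82.2 FPKM in cKO and 73.3 FPKM in WT stimulated nTregs, against 16.9 and 14.2 in the cKO and WT fresh libraries, which is 4.86-fold higher in cKO and 5.17-fold in WT (log2 difference 2.25 ± 0.08 SE, limma adjusted p = 4.43e-05). Mthfd2, the next mitochondrial enzyme, had 55.9 FPKM in cKO and 54.3 FPKM in WT stimulated nTregs, against 22.2 and 22.7 in the cKO and WT fresh libraries (1.26). Mthfd1l, which releases formate from mitochondria, had 35.0 FPKM in cKO and 33.2 FPKM in WT stimulated nTregs, against 21.3 and 20.1 in the cKO and WT fresh libraries (0.69). In the order of the mitochondrial steps the log2 differences were thus 2.25, 1.26 and 0.69. The cytosolic Shmt1 had 16.7 FPKM in cKO and 14.1 FPKM in WT stimulated nTregs, against 6.39 and 5.60 in the cKO and WT fresh libraries (1.23). The cytosolic Mthfd1, which takes up formate, had 31.5 FPKM in cKO and 25.2 FPKM in WT stimulated nTregs, against 16.7 and 15.9 in the cKO and WT fresh libraries (0.75). Each of the 5 had its 2 highest values in the stimulated libraries, an order that was not counted over all genes.

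**Figure D3:**
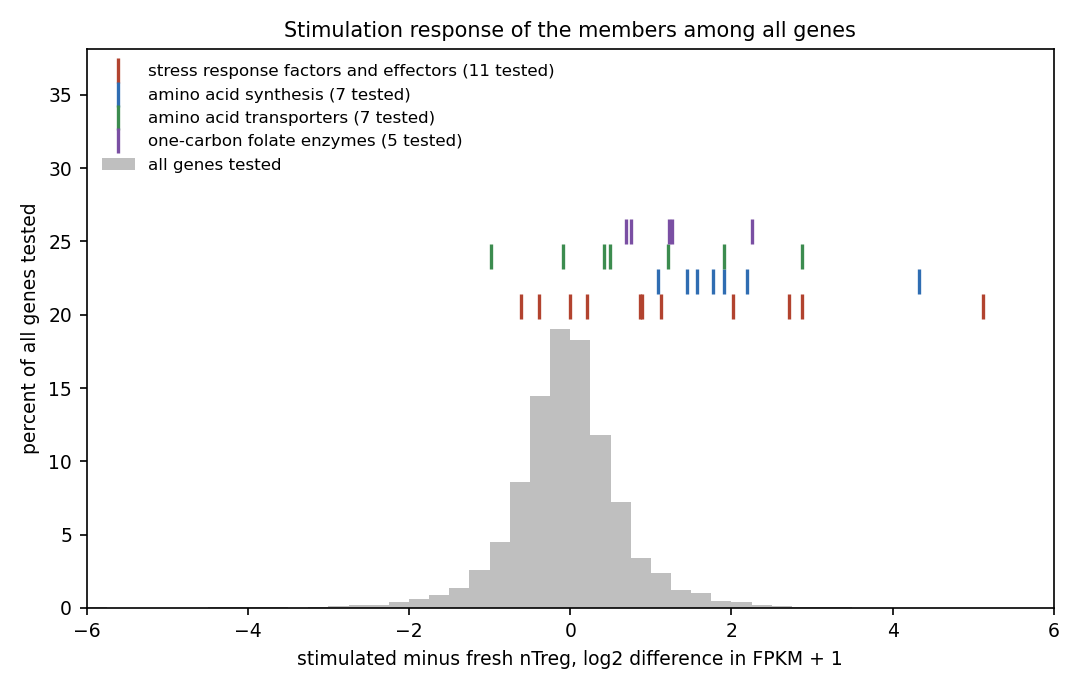
Distribution of the fitted difference between stimulated and fresh nTregs, in log2(FPKM + 1), over all 11224 genes tested (grey bars, percent of genes) with each tested member as a tick, coloured by role. All ticks of amino acid synthesis and of folate enzymes lie to the right of 0, while stress response factors and transporters spread to both sides.

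Large differences were common among the members. A log2 difference of at least 1 was reached by 14 of the 26 members measured before stimulation, against 6.041% of all genes tested, and one of at least 2 by 5 of the 26, against 0.9088%. The proliferation genes moved with them: 9 of 10 (Mki67, Top2a, Cdk1 and others) rose with stimulation, with a median log2 difference of 1.67, and their part in the response of the members was not tested. Across the 6 libraries the summed FPKM of the 5 folate enzymes was 221 in cKO and 200 in WT stimulated nTregs, against 83.5 in cKO and 78.5 in WT fresh nTregs. The summed FPKM of the 8 synthesis enzymes was 421 in cKO and 348 in WT stimulated nTregs, against 104 in cKO and 100.1 in WT fresh nTregs. The summed FPKM of the 8 transporters was 324 in cKO and 304 in WT stimulated nTregs, against 288 in cKO and 297 in WT fresh nTregs, with the fall of Slc38a2 set against 5 rises. In bulk RNA of this kind fewer cells with a transcript and less of it per cell cannot be told apart.

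Other genes of the same pathways, 80 in the table and 67 tested, moved in both directions. With stimulation 26 rose and 9 fell, where 22.5% of all genes tested rose and 27.3% fell. Their median log2 difference was 0.18, against -0.05 over all genes. Slc6a9, Slc7a3 and Stc2 were among the 26 and reached the FPKM minimum only through the stimulated libraries. Of the 64 with at least 1 FPKM in an unstimulated library, 23 rose and 9 fell, with a median of 0.13. Of 17 folate and glycine cleavage genes tested, 9 rose and 1 fell, and of 12 further amino acid transporters 6 rose and 1 fell. Of 19 genes of amino acid metabolism 8 rose and 4 fell. The 19 kinases, eIF2 and eIF2B subunits, phosphatase subunits and stress targets of the wider stress response had 3 that rose and 3 that fell. Without the cKO fresh library, 17 of the 67 rose and 4 fell.

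The largest rises among those genes were in metabolism and transport. Bcat1, the cytosolic branched-chain aminotransferase, had 13.6 FPKM in cKO and 11.3 FPKM in WT stimulated nTregs, against 1.16 and 1.11 in the cKO and WT fresh libraries (log2 difference 2.65). Gcsh, the lipoyl carrier of glycine cleavage, had 65.5 FPKM in cKO and 53.7 FPKM in WT stimulated nTregs, against 10.9 and 10.1 in the cKO and WT fresh libraries (2.39). Ahcy, which clears S-adenosylhomocysteine, had 142 FPKM in cKO and 83.9 FPKM in WT stimulated nTregs, against 29.6 and 25.6 in the cKO and WT fresh libraries (1.95). The glycine transporter Slc6a9 and the cationic transporter Slc7a3 rose by 2.02 and 1.56, from at most 0.250 FPKM in a fresh library.

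The largest fall was in the feedback arm of the stress response. Ppp1r15a, which brings the phosphatase that reverses eIF2 phosphorylation, had 11.1 FPKM in cKO and 11.5 FPKM in WT stimulated nTregs, against 359 in cKO and 379 in WT fresh nTregs (log2 difference -4.91, limma adjusted p = 1.98e-06). It was 349 FPKM in cKO and 324 FPKM in WT naive cells, so that both freshly sorted populations were high. Sesn1 fell by 1.00 on the log2 scale, to 19.2 FPKM in cKO and 27.3 in WT stimulated nTregs, against 43.1 in cKO and 50.7 in WT fresh nTregs. The remaining 3 of the 5 largest falls were of Mthfs (-0.74), Aldh4a1 (-0.68) and Glul (-0.52), and the difference of Glul was 0.05 when libraries were scaled to the same FPKM sum. Relative to the median of all genes it was -0.47 on the deposited values and -0.42 on that scaling.

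Between fresh nTregs and naive cells, 4 of the 30 members tested rose and 4 fell, where 16.5% of all genes tested rose and 14.7% fell. The share of members called was thus near that of all genes, and their median difference was 0.00. Those that rose were Asns (log2 difference 1.51), Psat1 (0.82), Eif4ebp1 (0.61) and Ddit4 (0.44), and those that fell were Trib3 (-0.64), Atf5 (-0.61), Slc38a2 (-0.51) and Mthfd1 (-0.34). Psat1 had 22.3 FPKM in cKO and 19.7 FPKM in WT fresh nTregs, against 12.1 and 10.9 in cKO and WT naive cells. Trib3 had 0.878 FPKM in cKO and 1.44 in WT fresh nTregs, against 2.27 and 2.41 in cKO and WT naive cells. Without the cKO fresh, WT fresh or cKO naive library, only Asns and Psat1 were called, as 2 rises and no falls. Without the WT naive library, 3 rose and 1 fell (Slc38a2). Without either stimulated library, 7 rose and 6 fell.

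Of the 67 other pathway genes tested, 12 rose and 12 fell between fresh nTregs and naive cells. Among all genes tested 16.5% rose and 14.7% fell, so these counts were near the share of all genes. Atf3, a stress-induced relative of ATF4, had 18.7 FPKM in cKO and 10.9 FPKM in WT fresh nTregs, against 0.729 and 0.933 in cKO and WT naive cells (3.07). Slc43a1, Slc36a4, Mthfs and Jdp2 followed with 1.74, 1.25, 1.15 and 1.05. Slc16a10, an aromatic amino acid carrier, had 0.956 FPKM in cKO and 0.992 in WT fresh nTregs, against 4.65 and 4.34 in cKO and WT naive cells (-1.48). Bcat2 (-0.86), Eif2ak3, the stress kinase of the endoplasmic reticulum (-0.81), Fpgs (-0.61) and Aldh4a1 (-0.57) were next. The rises in Atf3 and Jdp2 thus stood beside falls in Trib3 and Atf5.

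Between the genotypes no member was called. Across the populations, 0 of the 30 members tested passed in the library group labelled cKO against that labelled WT (limma). Of all 11224 genes 42 passed, or 0.374%. An unadjusted p under 0.05 (limma) was reached by 3 of the 30 members and by 1346 of the 11224 genes. The 3 were Shmt2 (log2 difference 0.19 ± 0.06 SE), Psat1 (0.18 ± 0.07) and Ddit4 (0.22 ± 0.09), with limma adjusted p of 0.339 to 0.414. Within a population no member was 2-fold apart in FPKM + 1, where 1.2% of genes were for naive cells, 1.03% for fresh nTregs and 1.9% for stimulated nTregs. The differences of the members lay between -0.55 and 0.62 on the log2 scale. A p that misses the threshold does not show that the genotypes are alike.

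**Figure D4:**
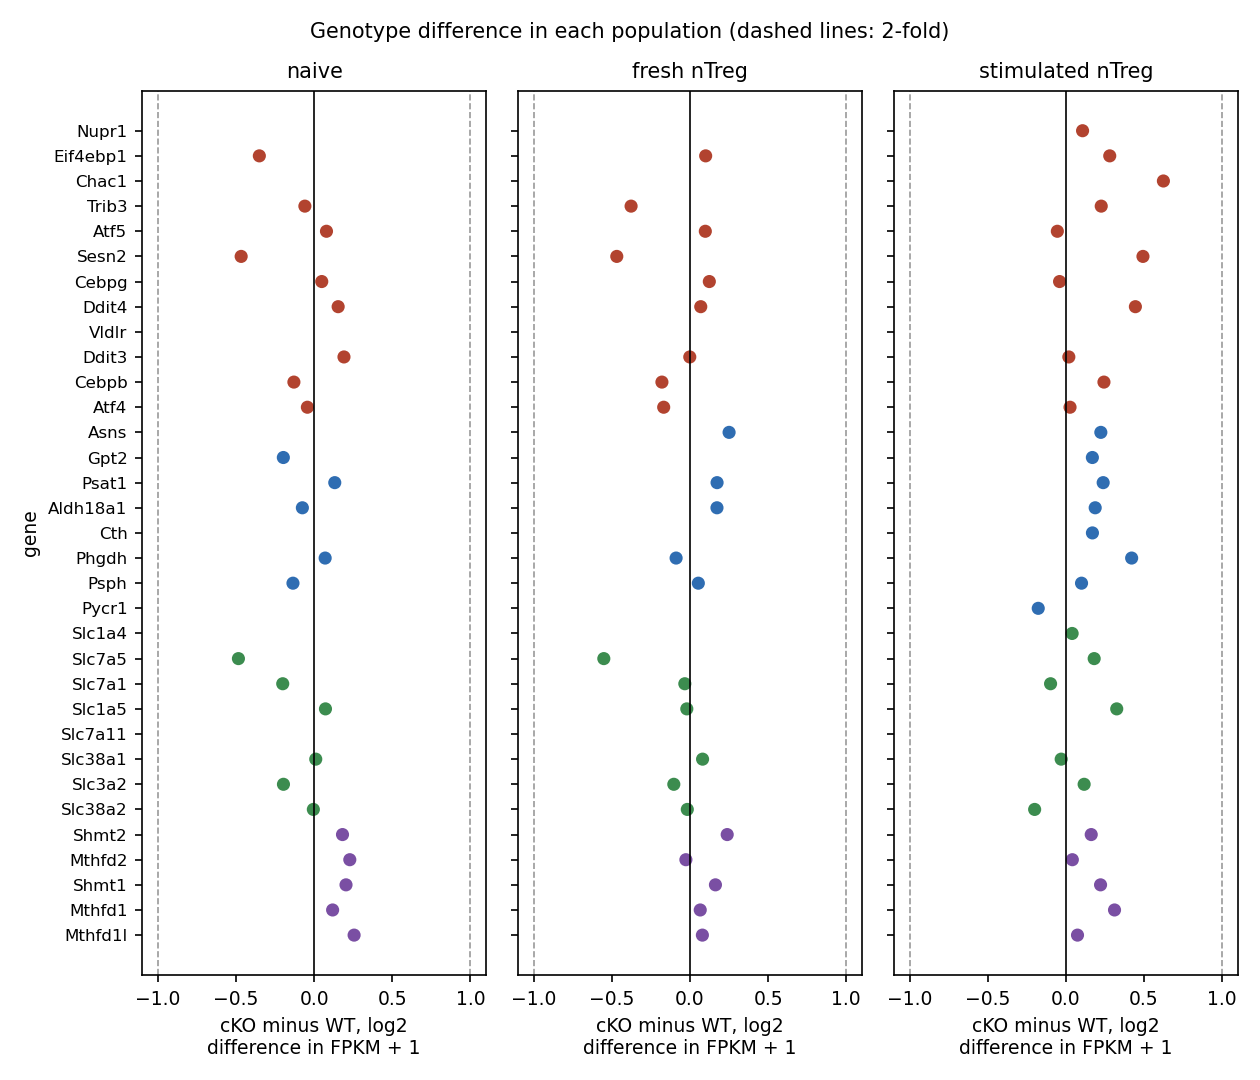
Difference between the library labelled cKO and that labelled WT, in log2(FPKM + 1), for each member with at least 1 FPKM in 1 of the 2 libraries, by population, coloured by role (red stress response, blue synthesis, green transporters, purple folate enzymes). No point reaches the dashed lines at 2-fold, and in stimulated nTregs 25 of 31 points lie right of 0.

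In stimulated nTregs the members leaned to the library labelled cKO. Of 31 members measured, 25 were higher in cKO, with a median log2 difference of 0.17, against 55.2% of all genes and a median of 0.04. Of the other pathway genes 43 of 67 were higher in cKO there, with a median of 0.08. In naive cells 13 of 25 members were higher in cKO (median 0.01), against 49.8% of all genes, and in fresh nTregs likewise 13 of 25 (median 0.05), against 50.0%. The largest differences in stimulated nTregs were Chac1 (8.08 FPKM in cKO against 4.89 in WT, 0.62), Sesn2 (0.49), Ddit4 (0.44) and Phgdh (0.42). With libraries scaled to the same FPKM sum, the median of the members in stimulated nTregs was 0.03, against -0.11 for all genes. The 10 proliferation genes were all higher in the stimulated library labelled cKO as well. Their summed level was 576 FPKM there, against 404 FPKM in that labelled WT. In fresh nTregs 9 of these 10 were higher in cKO (median 0.45), and in naive cells 3 of 7 measured (median -0.14). Across the populations 1 of the 10, Top2a, was called between the genotypes (log2 difference 0.72, limma adjusted p = 0.0433). In stimulated nTregs the 6 NK and cytotoxic markers summed to 68.1 FPKM in cKO against 23.6 in WT. Most of this was Nkg7 (63.7 against 19.9 FPKM). Gzma, Prf1 and Klrd1 were higher in cKO by little, and Klrb1c and Ncr1 were lower. The part of the proliferation genes and of these markers in the lean was not tested.

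On the deposited values the folate enzymes were higher in cKO in nearly every pair. All 5 were higher in cKO in naive cells and in stimulated nTregs, and 4 of 5 in fresh nTregs, where Mthfd2 had 22.2 FPKM in cKO against 22.7 in WT. The share of all genes higher in cKO was 49.8% for the naive pair, 50.0% for the fresh pair and 55.2% for the stimulated pair. The FPKM sum of the stimulated pair was 595524 in cKO against 534274 in WT. Mthfd2 and Mthfd1l differed by only 0.04 and 0.07 on the log2 scale in that pair. How many folate enzymes stay higher with libraries scaled to the same FPKM sum was not counted. The other folate and glycine cleavage genes did not follow in naive cells, where 5 of 16 were higher in cKO, and 10 of 17 were higher in fresh and 11 of 17 in stimulated nTregs. Shmt2 had 19.1 FPKM in cKO against 16.7 in WT naive cells, 16.9 against 14.2 in fresh nTregs and 82.2 against 73.3 in stimulated nTregs. Of the 24 members measured in all populations, 6 (25%) were higher in cKO in each (Ddit4, Psat1, Shmt1, Shmt2, Mthfd1, Mthfd1l) and 2 (8.333%) lower in each (Slc7a1, Slc38a2), against 19.62% and 16.77% of all genes. Of 6 transporters measured, 4 were lower in cKO in naive cells and 5 in fresh nTregs, where the difference was only -0.02 for Slc38a2, -0.02 for Slc1a5 and -0.03 for Slc7a1. Of 9 further amino acid transporters measured before stimulation, 8 were higher in the cKO naive library and 4 in the cKO fresh one. Before stimulation the largest difference among the members was in Slc7a5, at 10.3 FPKM in cKO against 14.8 in WT naive cells and 8.12 against 12.4 in fresh nTregs.

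The response to stimulation can also be set side by side for each genotype. The rise in cKO minus the rise in WT had a median of 0.07 over 31 members, against 0.04 over all genes, and was -0.07 with libraries scaled to the same FPKM sum, against -0.10 over all genes. It was above 0 for 21 of 31 members (67.7%), against 55.2% of all genes and 45 of 67 other pathway genes (67.2%). Sesn2 differed most (0.96): it rose by 1.37 on the log2 scale in cKO and by 0.41 in WT. Slc7a5 (0.73), Trib3 (0.60), Chac1 (0.52) and Phgdh (0.51) followed. In Slc7a5, Sesn2, Trib3 and Phgdh the fresh library labelled cKO was the lower of the fresh pair. The stimulated library labelled cKO was the higher of its pair in each. The same held for Atf4, Ddit3, Cebpb, Gpt2, Slc3a2, Slc1a5 and Mthfd2. These are differences between 4 single libraries and carry no test.

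**Figure D5:**
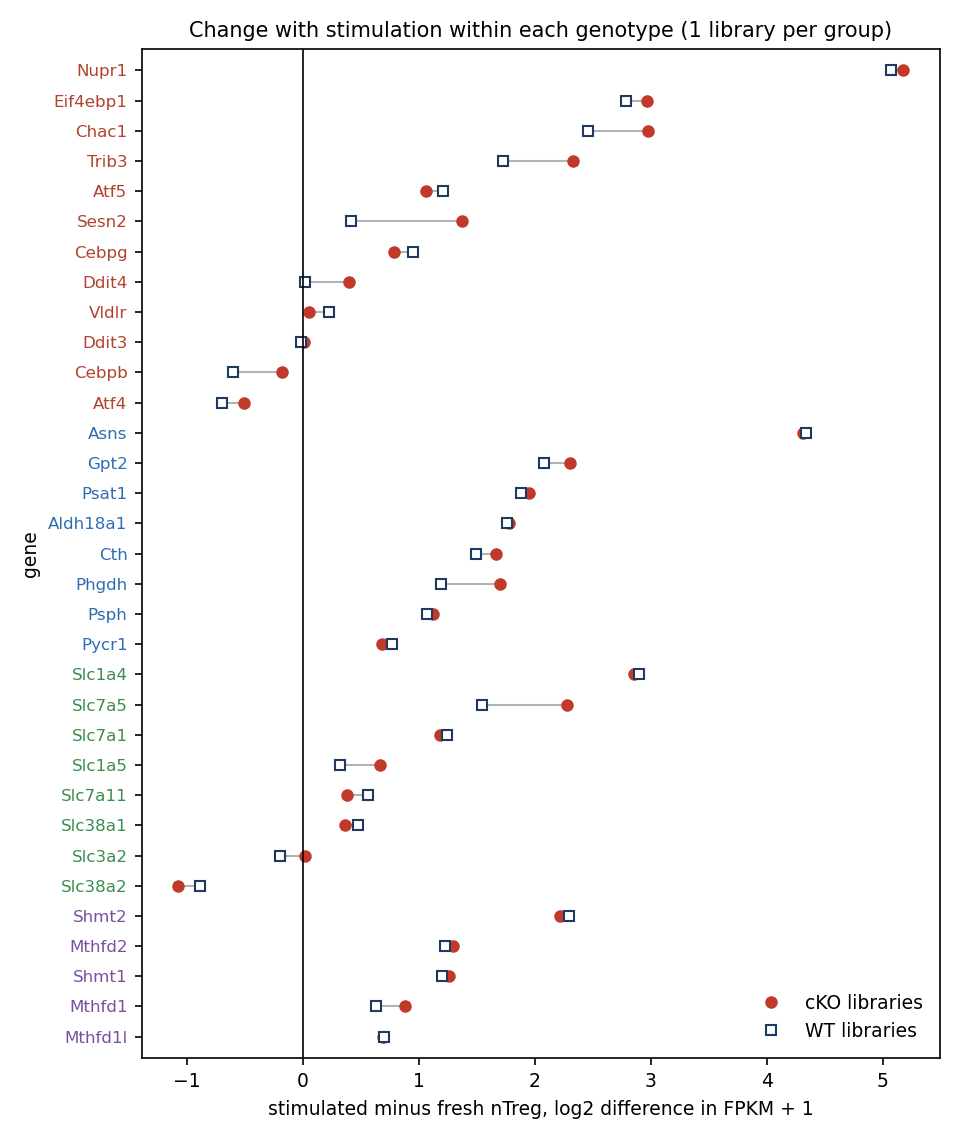
Change between stimulated and fresh nTregs in log2(FPKM + 1) for each member, in the libraries labelled cKO (red circles) and WT (open squares), joined by a line. The symbols lie close together for most genes and are farthest apart for Sesn2, at 1.37 in cKO and 0.41 in WT.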

How the data were processed

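Total RNA of the 6 libraries was made strand-specific after depletion of ribosomal RNA, from 322 ng and with 12 PCR cycles, per the labels' protocols. The deposited values are FPKM per RefSeq transcript, which the authors computed with TopHat, Cuffdiff and Cuffnorm on mm10 per the submitters' processing notes; FastQC is named as well and no versions are given. FPKM carry no counts, so no count test was run. Low values were whole fragments within 0.1 in 72.2% to 76.2% of cases at an estimated depth, too few to recover reads.

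Of 32860 rows, 32547 were distinct transcripts; 32101 were named by accession from RefSeq and 397 by the deposited symbol, and FPKM were summed per gene. Genes with at least 1 FPKM in at least 2 libraries (11224) were fitted with limma 3.58.1 in R 4.3.3 on log2(FPKM + 1), which understates the change of low genes, with additive terms for population and genotype, an intensity trend and Benjamini-Hochberg adjustment (adjusted p under 0.05). The fit leaves 2 residual and adds 4.02 prior degrees of freedom. It was tested on simulated data. Within a population only values are given, for genes with at least 1 FPKM in either library. Precision cannot be stated per library beyond the estimated worth of a fragment, which covers counting error only. Near copies were searched with blastn 2.17.0. Gene coordinates and sequences are from RefSeq, GRCm38.p6.

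The members and the lists of markers and of other pathway genes were chosen with earlier results of these data known. Every member is named; of the other pathway genes, up to 5 called rises and 5 called falls per comparison are named. One of the other pathway genes is counted in its list but not reported here on its own. Alternatives were a pseudocount of 0.1, FPKM minimums of 5 and none, equal FPKM sums, median-of-ratios scaling, no trend, no genotype term, fewer libraries, each library left out, and, added after seeing the data, deposited symbols only and members measured before stimulation.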

Additional observations from a re-analysis of the deposited data

Results flagged for a closer look

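For 5 members with at least 1 FPKM in a library compared, the cKO and WT libraries moved in opposite directions between populations, with 1 library per group, so the differences were not tested. Between stimulated and fresh nTregs these were Ddit3 (log2 difference 0.0064 in cKO and -0.01 in WT) and Slc3a2 (0.0202 in cKO and -0.20 in WT). Between fresh nTregs and naive cells they were Slc3a2 (0.0157 in cKO and -0.0769 in WT), Psph (0.00596 in cKO and -0.18 in WT), Mthfd1l (-0.0822 in cKO and 0.09 in WT) and Mthfd2 (-0.0375 in cKO and 0.22 in WT). Chac1 (0.21 in cKO and -0.02 in WT), Slc1a4 (0.00 in cKO and -0.15 in WT) and Pycr1 (-0.05 in cKO and 0.06 in WT) also differed in sign between fresh nTregs and naive cells, all at under 1 FPKM in those 4 libraries. Pycr1 was not tested, and none of the other members was called in the comparison concerned.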

How the results depend on the processing

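The rise with stimulation kept its direction for all 24 members called under every alternative in which they could be fitted. The number called was 19 to 24 with 1 library left out (19 without cKO and 21 without WT stimulated nTregs, where Chac1, Cth, Nupr1 and Slc1a4 no longer reach the FPKM minimum), and 2 to 3 members fell. With equal FPKM sums, 28 of 31 members rose and 1 fell, while all genes split into 6714 higher and 1020 lower of 11343, against 2527 and 3061 of 11224 on the deposited values. Relative to the median of all genes, 28 of 31 members then lay above it, against 26 of 30. Under that scaling 50 of the other pathway genes rose and 2 fell, and leaving out 1 library gave 17 to 26 that rose and 4 to 12 that fell. Falls of Bcat2 (0.060), Glul (0.045), Sesn3 (0.14) and Slc36a1 (0.031) turned positive with it, which moved the median of all genes to 0.47; relative to that median they were still -0.32 to -0.44. The comparison of fresh nTregs with naive cells was the least stable in number. Rises were 7 with the 4 naive and fresh libraries only, 9 with equal sums, 2 with no FPKM minimum, 2 with no trend, and 2 to 7 with 1 library left out. Falls were 2 with an FPKM minimum of 5, 0 with equal sums, 1 with no minimum, and 0 to 6 with 1 library left out. With equal sums the medians between genotypes were 0.0285 in stimulated nTregs and -0.0749 for the response. The cause of these changes was not tested. No member was called between genotypes, or was 2-fold apart within a population, under any alternative run. The labels carry no replicate numbers, so libraries were matched across populations by genotype alone, through the genotype term. Without that term 24 members rose and 3 fell with stimulation, and 3 rose and 3 fell between fresh nTregs and naive cells. Depth limits Chac1, Pycr1, Slc7a11 and Vldlr, which rest on few fragments before stimulation.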
